A study of Mus musculus with 12 samples.

Results

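The genes that build sterols and fatty acids were followed in mouse gastruloids by bulk RNA sequencing. The list holds 34 of the 38911 genes in the count tables, chosen by their known function with no threshold on their levels: 18 enzymes of sterol synthesis, 6 genes that sense sterols, control the pathway or carry sterols, and 10 genes of fatty acid synthesis and its lipid products. Earlier results of these data were known when the list was chosen. Shares of the list set beside all genes therefore describe it and do not test it. Gastruloids are aggregates of embryonic stem (ES) cells that form the germ layers and elongate in culture. They were grown from 200 cells of E14TG2a, a mouse ES cell line kept in 2iLIF medium, treated from day 3 to day 4 and collected on day 4. The 4 groups were 1× glucose (21.25 mM), no glucose (0×), 3× glucose (63.75 mM) and 5 mM 2-DG (2-deoxy-D-glucose, a glucose analog that cells take up and that blocks hexokinase) in 1× glucose. Per the paper, 2-DG also competes with mannose when proteins are glycosylated, and mannose given with it rescued mesoderm specification. Within a group the 3 libraries came from different passages of this 1 cell line, passages 13, 15 and 16. A library was a pool of gastruloids of 1 treatment, taken from 1 plate, and p-values below measure the spread between these 12 libraries. The paper describes treatments side by side within a plate, so that libraries of different groups may share a plate. A library held 31902471 to 45956080 counts, and the 34 genes took 0.735% to 0.895% of them, with 252 to 67073 counts per gene and library. All 34 genes passed the filter on low counts, which left 16966 genes to test. Among markers of the cells that gastruloids hold on day 4, the primitive streak and early mesoderm genes summed to 550.5 to 774.5 CPM (counts of a gene per 1000000 counts of the library) in 1× glucose, and the visceral endoderm genes to 1.58 to 2.02 CPM.

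Cholesterol and fatty acids are both made from acetyl-CoA. In the mevalonate pathway acetyl-CoA is condensed and reduced to mevalonate, then built up through isoprenoid units to squalene, which is closed to lanosterol and trimmed to cholesterol. The SREBP transcription factors, encoded by *Srebf1* and *Srebf2*, are held in the membrane of the endoplasmic reticulum by Scap and the Insig proteins while sterols are plentiful. When sterols are scarce, Scap carries SREBP to the Golgi for cleavage, and the freed factor turns on sterol and fatty acid genes together with the factors NF-Y and Sp1. In the embryo, cholesterol is also a modifier of the Hedgehog ligands and a component of the membranes that dividing cells need.

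The bases just upstream of the start of 4 sterol enzyme genes with a higher level in 2-DG are shown first, because SREBP is known to act through such sites. They were taken from RefSeq (GRCm38.p6) and are written in the direction of the gene, up to the outermost start of the gene, with the sterol regulatory element TCACNCCAC and the NF-Y box CCAAT, on either strand, in capitals. Only genes with a marked match in these bases are shown. *Dhcr7* and *Scap*, which passed the test in 2-DG below, had none there and are left out. *Fdft1* and *Stard4*, which also passed it, were not among the genes with promoter bases to search. *Hmgcs1* lies on the plus strand, at chr13:119690101-119690350 for these bases, *Mvd* on the minus strand at chr8:122443423-122443672, *Msmo1* on the minus strand at chr8:64733579-64733828 and *Lss* on the plus strand at chr10:76531355-76531564.
Hmgcs1: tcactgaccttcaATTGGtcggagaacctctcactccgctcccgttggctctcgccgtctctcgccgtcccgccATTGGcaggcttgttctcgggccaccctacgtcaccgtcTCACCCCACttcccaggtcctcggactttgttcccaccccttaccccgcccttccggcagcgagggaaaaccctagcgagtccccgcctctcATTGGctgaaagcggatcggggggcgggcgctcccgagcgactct
Mvd: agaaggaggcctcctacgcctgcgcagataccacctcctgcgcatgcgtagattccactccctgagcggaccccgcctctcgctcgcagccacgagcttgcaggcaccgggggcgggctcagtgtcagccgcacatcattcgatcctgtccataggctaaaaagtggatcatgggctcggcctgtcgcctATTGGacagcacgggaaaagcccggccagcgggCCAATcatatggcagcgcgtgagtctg
Msmo1: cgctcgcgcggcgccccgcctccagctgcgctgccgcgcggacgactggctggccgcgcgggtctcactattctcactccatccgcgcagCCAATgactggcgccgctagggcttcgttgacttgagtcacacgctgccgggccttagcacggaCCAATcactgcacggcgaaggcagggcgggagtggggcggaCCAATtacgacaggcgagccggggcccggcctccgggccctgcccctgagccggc
Lss: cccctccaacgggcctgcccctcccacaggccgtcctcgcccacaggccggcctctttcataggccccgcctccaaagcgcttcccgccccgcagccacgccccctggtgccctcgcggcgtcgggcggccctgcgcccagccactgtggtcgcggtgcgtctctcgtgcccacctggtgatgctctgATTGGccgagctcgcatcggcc
The table of promoters held 27 of the 34 genes, with 250 bases before each listed start. Both strands were searched for 4 motifs, each on its own, so that matches may overlap. The sterol regulatory element was found in 1 of the 27 genes, *Hmgcs1*, 137 to 129 bases before its start, against 1.33% of the 13049 tested genes in the table. The palindromic SREBP E-box TCACGTGA was found in 0 of the 27 and in 1.56% of the tested genes. CCAAT was found in 20 of the 27 genes (74.1%), against 40.2% of the tested genes. It was present in 14 of 15 sterol enzymes, all but *Acat2*, in 4 of 5 regulators, all but *Scap*, and in 2 of 7 fatty acid genes, *Fasn* and *Acss2*. The Sp1 box GGGCGG was found in 22 of the 27 (81.5%), against 59.8% of the tested genes. Among the sterol enzymes searched, which leave out *Fdft1*, CCAAT was found in 5 of 5 that passed the test in 2-DG below and in 9 of 10 that did not. For *Dhcr7*, among the 5, it lay only before a listed start inside the gene, and its other listed starts had none. These counts describe letters in a fixed window and say nothing about binding.

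In 2-DG, 6 of the 18 sterol synthesis enzymes and 2 of the 6 regulatory genes were higher than in 1× glucose, and 0 of the 10 fatty acid genes passed the test. The 8 genes were *Hmgcs1*, *Mvd*, *Fdft1*, *Lss*, *Msmo1*, *Dhcr7*, *Scap* and *Stard4*. Their log2 fold changes lay between 0.15 and 0.54, that is between 1.11-fold and 1.45-fold. This was 23.5% of the 34 genes, against 9.12% of all 16966 genes tested that were called higher in this comparison (edgeR quasi-likelihood test, Benjamini-Hochberg adjusted p under 0.05). As the list was chosen with earlier results of these data known, the shares are descriptive. None of the 34 was called lower, against 8.51% of all genes, and 0 were lower at an unadjusted p under 0.05 or by DESeq2. The median log2 fold change was 0.21 over the 18 sterol enzymes, 0.09 over the 6 regulatory genes and 0.12 over the 10 fatty acid genes, beside 0.002 over all genes tested. In bulk RNA, more RNA per cell and more cells of a type that expresses the gene cannot be told apart. The markers of the primitive streak and early mesoderm summed to 276.1 to 433.2 CPM in 2-DG, below every 1× glucose library, and 3 of the 8 were called lower, *T* (log2 fold change -1.57), *Mixl1* (-3.89) and *Wnt3a* (-2.72). The neural markers overlapped between the groups in their sum (275.1 to 593.1 CPM in 1× glucose and 276.8 to 495.8 in 2-DG), with 2 of 8 called higher, among them *Sox1* (1.84). The definitive endoderm markers went from 72.2 to 243 CPM in 1× glucose to 39.8 to 99.4 CPM in 2-DG, with 2 of 5 tested called lower. The naive pluripotency markers went from 12.1 to 16.3 CPM to 18.4 to 20.6 CPM, with 1 of 6 called higher. The visceral endoderm markers were low in both (2.05 to 3.95 CPM in 2-DG), with 0 of 3 tested called by edgeR and 1 at an unadjusted p under 0.05. With the passage as a term in the fit, 21.1% of all genes tested were called higher and 20.2% lower. There 5 of 8 streak and mesoderm markers and 4 of 5 definitive endoderm markers were called lower. Of the 8 neural markers 4 were higher and 2 lower, and 3 of 6 naive pluripotency and 1 of 3 visceral endoderm markers were higher. The part of these cell types in the sterol gene values was not tested.

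The sterol enzymes are given in the order of the pathway, with CPM (with library sizes scaled by TMM, the trimmed mean of log ratios between libraries, and not divided by gene length) for passages 13, 15 and 16. *Hmgcs1*, the synthase that makes HMG-CoA (chr13:119690351-119708260), was at 561.5, 648.5 and 579.4 CPM in 1× glucose and at 788.5, 785.5 and 710.9 CPM in 2-DG. Every 2-DG library lay above every 1× glucose library. The log2 fold change was 0.35 ± 0.09 (SE, n = 3, adjusted p = 0.0214 by edgeR). The call of *Hmgcs1* was lost when the 1× glucose library of passage 13 or 16, or the 2-DG library of passage 13 or 15, was left out, with adjusted p = 0.0589 to 0.0666 in edgeR.

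*Mvd*, the decarboxylase that makes isopentenyl diphosphate (chr8:122433596-122443422), had the largest log2 fold change of the 34 genes. Its level was 89.1 CPM in each of the 1× glucose libraries and 126.7, 139.1 and 122.8 CPM in 2-DG. The groups lay far apart, with a log2 fold change of 0.54 ± 0.05 (SE, n = 3, adjusted p = 0.000143 by edgeR). *Mvd* was called under all 14 alternatives tried. A long noncoding gene, *Gm51557*, overlaps 3213 bases of *Mvd*, with 2479 counts over the 12 libraries beside 44273 of *Mvd*, and whether the counting used the strand is not given in the sources used here.

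The next enzymes lead to squalene and lanosterol. *Fdft1*, squalene synthase (chr14:63145150-63181687), was at 135, 139.5 and 125.9 CPM in 1× glucose and at 175.2, 174.2 and 165.3 CPM in 2-DG. The log2 fold change was 0.36 ± 0.05 (SE, n = 3, adjusted p = 0.000895 by edgeR), with no overlap between the groups. The gene *Ctsb*, which overlaps 774 bases of *Fdft1*, had a log2 fold change of 0.09 ± 0.07 (SE, adjusted p = 0.414 by edgeR). *Lss*, lanosterol synthase (chr10:76531565-76557139), was at 143.9, 146.7 and 146.3 CPM in 1× glucose and at 193.2, 194.5 and 164.9 CPM in 2-DG. Its 2-DG library of passage 16 was the lowest of the 3 and still above all 1× glucose libraries. The log2 fold change of *Lss* was 0.34 ± 0.07 (SE, n = 3, adjusted p = 0.00778 by edgeR).

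Of the enzymes that trim lanosterol to cholesterol, *Msmo1* and *Dhcr7* passed the test. *Msmo1*, the C4-methylsterol oxidase (chr8:64718123-64733578), was at 181.3, 200.1 and 177.9 CPM in 1× glucose and at 252.5, 261.5 and 245.6 CPM in 2-DG. The log2 fold change was 0.44 ± 0.06 (SE, n = 3, adjusted p = 0.00111 by edgeR), and the gene was called under all 14 alternatives. *Dhcr7*, which reduces 7-dehydrocholesterol to cholesterol (chr7:143823167-143848410), was at 91.3, 94.5 and 93.6 CPM in 1× glucose and at 103.3, 106.7 and 100.8 CPM in 2-DG. This difference was the smallest of the 8, with a log2 fold change of 0.15 ± 0.04 (SE, n = 3, adjusted p = 0.0302 by edgeR). The call of *Dhcr7* was lost when any library of the pair of groups but the 2-DG library of passage 16 was left out, with adjusted p = 0.0625 to 0.108 in edgeR, and also without the filter on low counts (0.0845) or with only these 6 libraries in the fit (0.083).

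Of the genes that control the pathway, *Scap*, the SREBP escort protein (chr9:110333288-110384949), was at 100.5, 96.8 and 115.1 CPM in 1× glucose and at 130.2, 132.9 and 139.5 CPM in 2-DG. The log2 fold change was 0.37 ± 0.08 (SE, n = 3, adjusted p = 0.00998 by edgeR), and the groups did not overlap. *Stard4*, a cytosolic sterol carrier, was at 97.4, 98.7 and 96.9 CPM in 1× glucose and at 117.3, 117.1 and 112.8 CPM in 2-DG. Its log2 fold change was 0.24 ± 0.05 (SE, n = 3, adjusted p = 0.00935 by edgeR), again without overlap. The genes of the SREBP factors and of their anchors did not pass the test. *Srebf2*, the factor best known for sterol genes, had a log2 fold change of -0.06 (95% confidence interval -0.29 to 0.18), and *Srebf1*, best known for fatty acid genes, one of -0.09 (-0.33 to 0.15). *Insig1* had 0.09 (-0.09 to 0.27) and *Insig2* had 0.09 (-0.22 to 0.39). All 4 overlapped between the groups, and none differed in the same direction in all 3 passages.

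**Figure D1:**
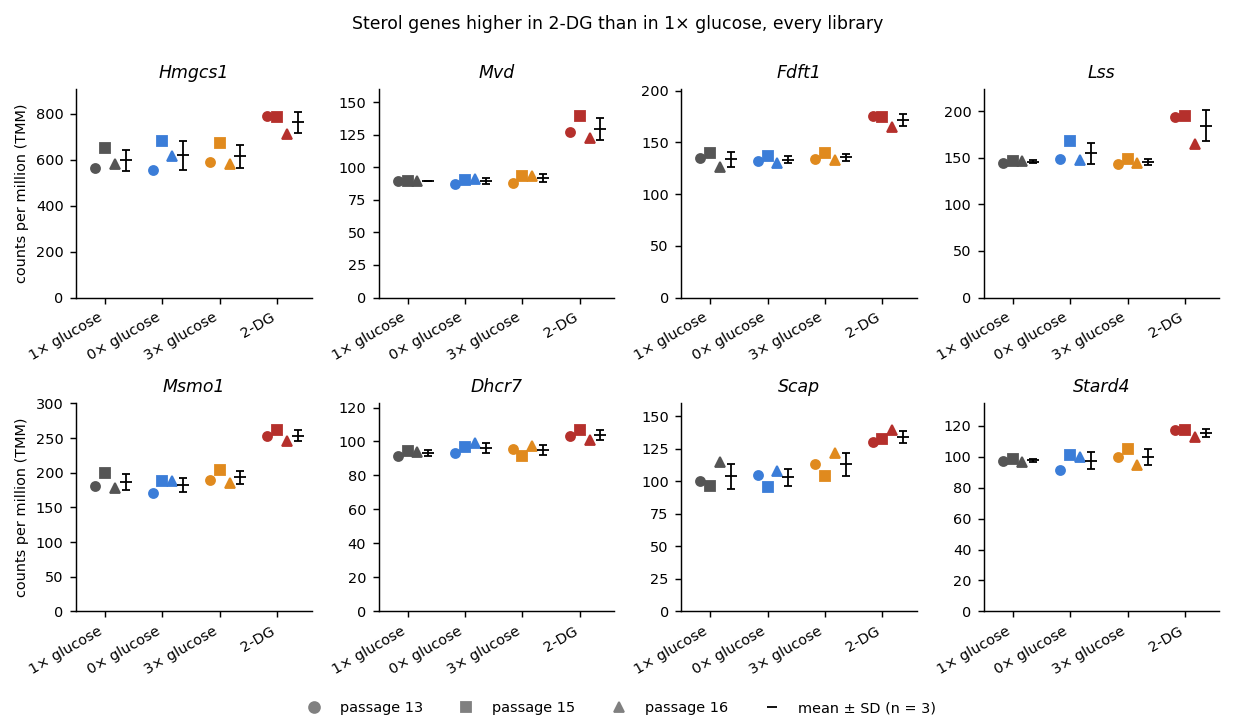
Level of the 8 genes called higher in 2-DG, in CPM scaled by TMM (y axis, from 0), in the 4 groups (x axis). Circles, squares and triangles are the libraries of passages 13, 15 and 16, and bars are the mean ± SD (n = 3). For each gene the 3 libraries in 2-DG lie above the 3 libraries in 1× glucose, as for *Mvd* with 122.8 to 139.1 CPM against 89.1 CPM.

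The other 12 sterol enzymes did not pass the test in the fit without the passage. They were *Acat2* and *Mvk*, *Pmvk*, *Idi1* and *Fdps* on the way to farnesyl diphosphate, *Sqle*, which opens the oxygen-dependent part of the pathway, and *Cyp51*, *Tm7sf2*, *Nsdhl*, *Hsd17b7*, *Ebp* and *Sc5d* after lanosterol. Of these, 10 had a log2 fold change above 0 and 2 one below 0, *Mvk* (-0.02) and *Idi1* (-0.15). The highest were *Tm7sf2* (0.34, adjusted p = 0.158 by edgeR), *Sc5d* (0.29, adjusted p = 0.158), *Ebp* (0.24, adjusted p = 0.278) and *Cyp51* (0.22, adjusted p = 0.117). *Sqle* (0.21), *Cyp51*, *Sc5d*, *Pmvk* (0.14) and *Hsd17b7* (0.11) were higher in every 2-DG library than in every 1× glucose library. Counted over the whole list, 16 of the 34 genes (47.1%) had 2-DG libraries that all lay above the 1× glucose libraries, against 18.3% of all genes tested, and 0 had libraries that all lay below, against 17.2%. The 16 were 11 of the sterol enzymes, *Scap*, *Stard4* and, among the fatty acid genes, *Scd1*, *Scd2* and *Fads2*.

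Because libraries of 1 passage deviated together, the comparison was also fitted with a term for the passage, called the block below. In that fit 22 of the 34 genes (64.7%) were called higher in 2-DG and 1 lower, against 21.1% and 20.2% of all genes tested. Among the sterol enzymes 15 of 18 were called higher, all but *Mvk*, *Fdps* and *Idi1*. *Idi1*, the isopentenyl diphosphate isomerase, was the 1 gene called lower (log2 fold change -0.15, adjusted p = 0.0229 by edgeR with the block), being lower in 2-DG in each of the 3 passages. Its levels were 200.2, 206.5 and 174.4 CPM in 1× glucose and 187, 174.8 and 161.1 CPM in 2-DG, so that the groups overlapped. *Cyp51* had an adjusted p of 0.000302 with the block and 0.117 without it, at 219.1, 259.1 and 226.8 CPM in 1× glucose and 265.2, 293.7 and 262.2 CPM in 2-DG. *Tm7sf2*, a sterol C14-reductase, had an adjusted p of 0.00233 with the block and 0.158 without, at 47.3, 36 and 34.4 CPM in 1× glucose and 59.5, 45.6 and 44.3 CPM in 2-DG. Within each passage *Tm7sf2* differed by 0.33 to 0.37 on the log2 scale, whereas passage 13 lay above the other two in both groups. The 15 genes that were called only with the block had adjusted p-values of 0.000302 to 0.043 there.

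In the fatty acid genes, 0 of 10 passed the test in 2-DG without the block. There 4 (40%) had an unadjusted p under 0.05 in edgeR, *Scd1*, *Scd2*, *Fads2* and *Lpin1*, all of them higher. Over all genes tested 31.7% had such a p, with higher and lower genes counted together, so that these shares are not directly comparable. DESeq2 called 2 of the 10 fatty acid genes, *Scd2* (adjusted p = 0.0329) and *Fads2* (adjusted p = 0.0433). *Scd2*, a stearoyl-CoA desaturase that puts the first double bond into saturated fatty acids, was at 1274, 1402 and 1449 CPM in 1× glucose and at 1518, 1610 and 1510 CPM in 2-DG. Its log2 fold change was 0.17 ± 0.06 (SE, n = 3, adjusted p = 0.0609 by edgeR). *Scd1*, its paralog, was at 209.4, 255.1 and 288.5 CPM in 1× glucose and at 289.1, 334.5 and 313 CPM in 2-DG, with a log2 fold change of 0.32 ± 0.12 (SE, n = 3, adjusted p = 0.101 by edgeR). The lowest 2-DG library of *Scd1* lay just above the highest 1× glucose library. *Lpin1*, a phosphatidate phosphatase that is also an SREBP target, had a log2 fold change of 0.33 ± 0.12 (SE, adjusted p = 0.0855 by edgeR). With the block 5 of the 10 genes (50%) were called higher, *Acly*, *Scd1*, *Scd2*, *Fads2* and *Lpin1*, with adjusted p = 0.00101 to 0.0118 in edgeR. None was called lower with the block, and of all genes tested 21.1% were called higher and 20.2% lower there.

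Of the genes that make and elongate the fatty acid chain, *Fasn*, *Acaca* and *Elovl6* did not pass the test in either fit. *Fasn*, fatty acid synthase, was at 770.4, 903 and 1015 CPM in 1× glucose and at 779.7, 1021 and 942.9 CPM in 2-DG, with a log2 fold change of 0.03 (95% confidence interval -0.22 to 0.28). *Acaca*, the acetyl-CoA carboxylase that supplies malonyl-CoA, had 0.10 (-0.24 to 0.45), and *Elovl6*, which elongates palmitate, had -0.06 (-0.22 to 0.11). *Acly*, which makes cytosolic acetyl-CoA from citrate, had 0.12 ± 0.07 (SE) and was called with the block alone, whereas *Acss2*, which makes it from acetate, had 0.15 ± 0.25 (SE) and the desaturase *Fads1* 0.05 ± 0.06 (SE), neither of them called in either fit. Summed over the list, the sterol enzymes took 2609, 2859 and 2588 CPM in 1× glucose and 3229, 3280 and 3012 CPM in 2-DG. These sums did not overlap, whereas those of the 10 fatty acid genes did, with 3829, 4354 and 4524 CPM in 1× glucose and 4355, 4888 and 4560 CPM in 2-DG. The sums of the 6 regulatory genes also overlapped, at 702.2 to 814.5 CPM in 1× glucose and 779.9 to 847.1 CPM in 2-DG. No test was made of a sum.

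**Figure D2:**
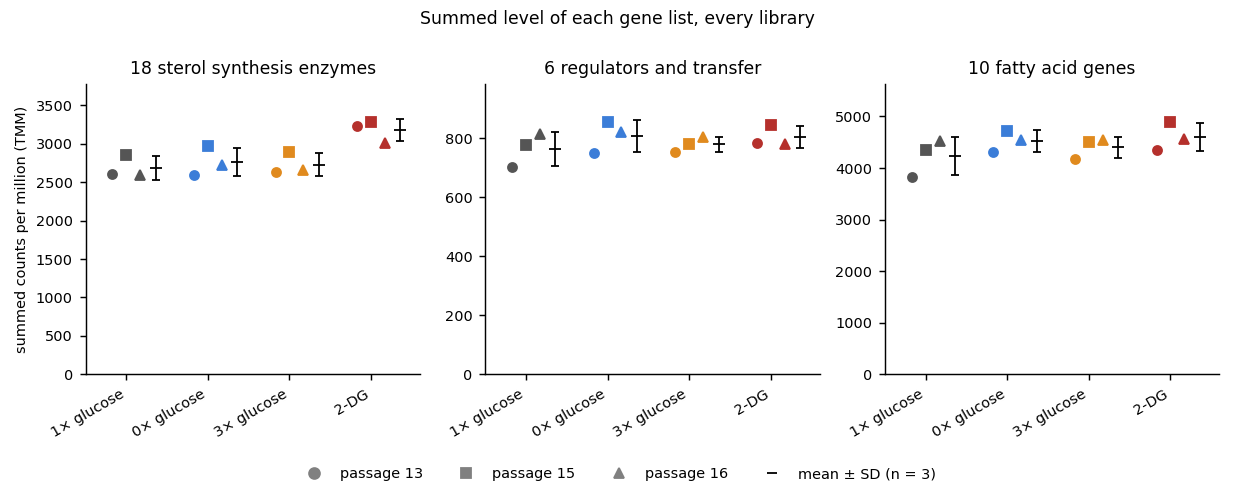
Summed level of the 18 sterol synthesis enzymes, the 6 regulatory and transfer genes and the 10 fatty acid genes, in CPM scaled by TMM (y axis, from 0), in the 4 groups (x axis). Symbols are the libraries of passages 13, 15 and 16 and bars the mean ± SD (n = 3). The sterol enzymes sum to 3012 to 3280 CPM in 2-DG, above the 2588 to 2966 CPM of the other 9 libraries.

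No change was detectable in these genes when glucose was removed. In 0× against 1× glucose 0 of 34 genes were called by edgeR, 0 had an unadjusted p under 0.05 and 0 were called by DESeq2, in a comparison in which 0.0118% of all genes tested were called. In the fit with the block 0 of 34 were called, against 0.0177% of all genes. There 8 of 34 (23.5%) had an unadjusted p under 0.05, against 9.38% of all genes. The log2 fold changes of the list ran from -0.31 (*Acss2*) to 0.14 (*Insig1*), with a median of 0.05. *Insig1* was at 119.4, 121.4 and 114.1 CPM in 1× glucose and at 126.9, 136.3 and 126.4 CPM without glucose. *Insig1* and *Lss* were the 2 of the 34 genes whose groups did not overlap here. The share of all genes without overlap was not counted for this comparison. *Acss2* was at 14.4, 9.86 and 9.63 CPM in 1× glucose and at 11.8, 7.52 and 8.01 CPM without glucose, lower in each passage but overlapping between the groups. The log2 fold change of *Acss2* was -0.10 without the 1× glucose library of passage 13 and -0.55 without the 0× glucose library of passage 13. *Lpin1* was at 22.9, 19.4 and 25.1 CPM in 1× glucose and at 20.2, 17.8 and 19.6 CPM without glucose (log2 fold change -0.23 ± 0.12, SE). For the 8 genes called in 2-DG, the log2 fold changes without glucose lay between -0.03 and 0.09, and their 95% confidence intervals reached from -0.19 to 0.25. The intervals of all 34 genes reached from -0.87 to 0.47, the widest being that of *Acss2*.

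No change was detectable in 3× glucose either, in a comparison that shares the 1× glucose libraries with those above. In 3× against 1× glucose 0 of 34 genes were called by edgeR, 0 had an unadjusted p under 0.05 and 0 were called by DESeq2, and 0.00% of all genes tested were called, both without and with the block. With the block 1 of the 34 genes had an unadjusted p under 0.05, against 5.16% of all genes. The log2 fold changes ran from -0.10 (*Insig2*) to 0.13 (*Fasn*), with a median of 0.02. *Fasn* was at 891.3, 987.7 and 1059 CPM in 3× glucose, which overlapped with 1× glucose. For the 8 genes called in 2-DG the 95% confidence intervals reached from -0.15 to 0.29. Between 3× and 0× glucose, 0 of 34 genes were called by edgeR, against 0.0118% of all genes tested, and 1 had an unadjusted p under 0.05, against 4.33% of all genes. With the block 0 of 34 were called, against 0.802% of all genes, and 9 had an unadjusted p under 0.05 (26.5%, against 16.2% of all genes).

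**Figure D3:**
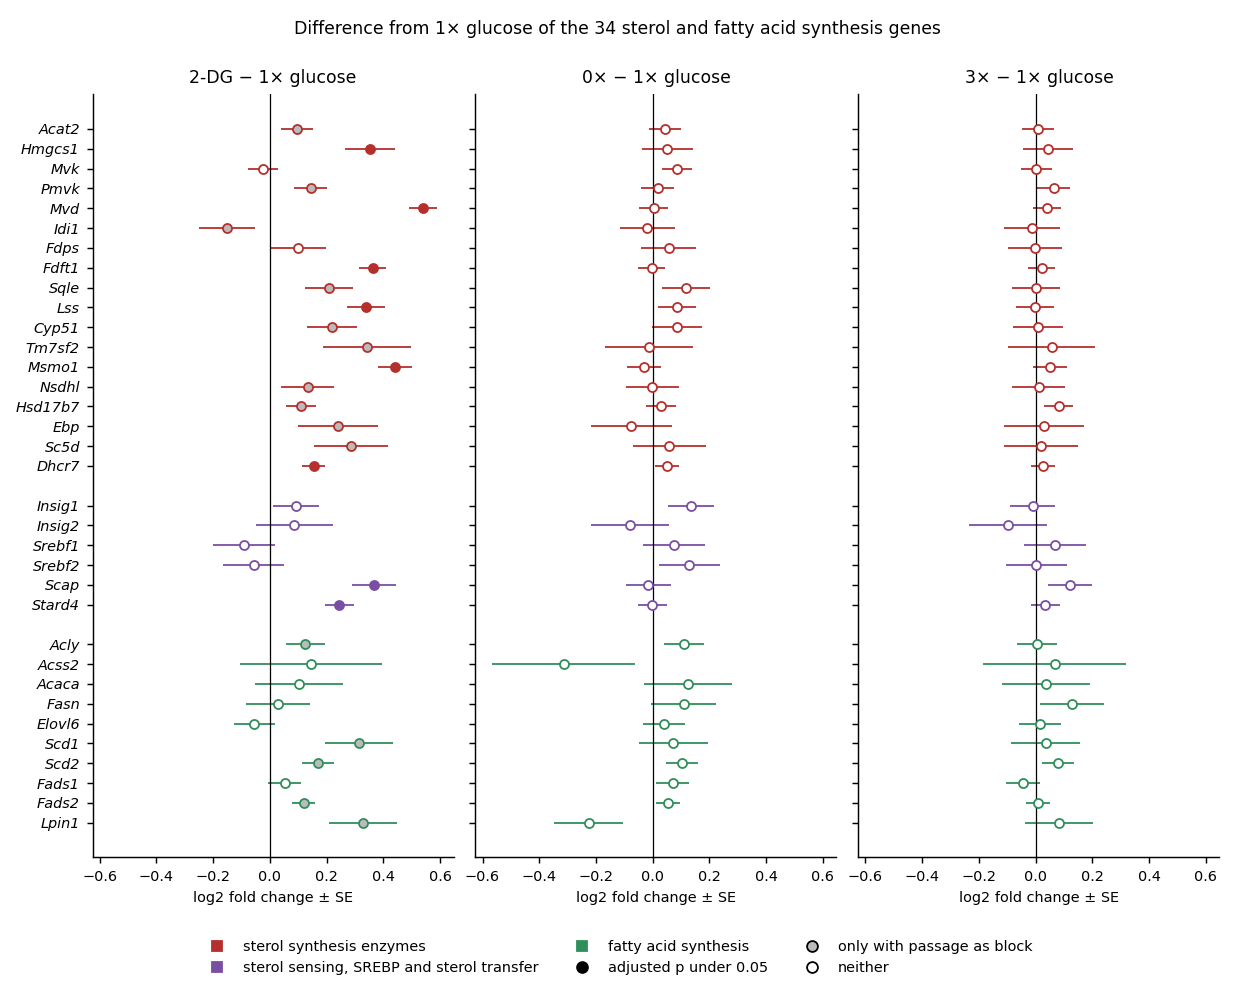
Log2 fold change ± SE (x axis) of the 34 genes (y axis, by list) in 2-DG, 0× and 3× glucose, each against 1× glucose, fitted by edgeR over all 12 libraries, so that the 3 panels share the 1× glucose libraries. Filled points had an adjusted p under 0.05, grey points only in the fit with the passage term. In 2-DG 29 of 34 points lie right of 0 and *Mvd* reaches 0.54, and in 0× and 3× glucose no point is filled.

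The 2-DG group was also compared directly with 0× glucose, a comparison that shares the 2-DG libraries with the one against 1× glucose. Of the 34 genes 8 were called higher and 0 lower in edgeR, against 9.86% and 9.04% of all genes tested, and 0 were lower at an unadjusted p under 0.05 or by DESeq2. They were the genes called against 1× glucose apart from *Dhcr7* (log2 fold change 0.10, adjusted p = 0.112, and 0.037 with the block), together with *Lpin1*. *Mvd* had a log2 fold change of 0.54 ± 0.05 (SE, adjusted p = 0.000131), *Msmo1* of 0.47 ± 0.06 (SE, adjusted p = 0.000686) and *Fdft1* of 0.37 ± 0.05 (SE, adjusted p = 0.00075), all by edgeR. *Scap* had 0.38 ± 0.08 (SE), *Stard4* 0.25 ± 0.05 (SE), *Hmgcs1* 0.30 ± 0.09 (SE) and *Lss* 0.25 ± 0.07 (SE). Among these, *Lss* overlapped between the groups, with 148.3, 167.8 and 147.8 CPM in 0× glucose. The calls of *Hmgcs1* and *Lss* were lost in the same 4 of the 6 fits that left out 1 library, those without passage 13 or 16 of 0× glucose or passage 13 or 15 of 2-DG, with adjusted p = 0.0783 to 0.104 in edgeR, and in the fit of only these 6 libraries (0.0602 and 0.0933). *Lpin1* was at 20.2, 17.8 and 19.6 CPM in 0× glucose and at 24.8, 29.4 and 30.4 CPM in 2-DG, with no overlap. Its log2 fold change was 0.56 ± 0.12 (SE, n = 3, adjusted p = 0.0103 by edgeR).

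In the fit with the block, 16 of the 34 genes (47.1%) were higher and 4 (11.8%) lower in 2-DG than in 0× glucose, against 21.5% of all genes tested called higher and 21.5% called lower. Called higher with the block alone were *Dhcr7*, *Cyp51* (adjusted p = 0.00556 by edgeR), *Tm7sf2* (0.00237), *Nsdhl* (0.0298), *Ebp* (0.00215), *Sc5d* (0.00355), *Acss2* (0.00101) and *Scd1* (0.00477). The 4 lower genes were *Idi1*, *Elovl6* and the genes of both SREBP factors. *Srebf2* was at 297.2, 368 and 339.5 CPM in 0× glucose and at 273.8, 323.4 and 285.9 CPM in 2-DG, lower in each passage but overlapping between the groups. Its log2 fold change was -0.18 ± 0.05 (SE, adjusted p = 0.014) with the block and -0.19 ± 0.11 (SE, adjusted p = 0.257) without it, both by edgeR. *Srebf1* was at 110.1, 126.8 and 127.2 CPM in 0× glucose and at 97.8, 115.2 and 111.5 CPM in 2-DG (adjusted p = 0.0226 by edgeR with the block and 0.331 without).

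Libraries of different ES cell passages differed in many of these genes. Each passage was represented by its own set of 4 libraries, 1 per group, so that the passage cannot be told apart from the culture run or day. In the fit with group and passage, 23 of the 34 genes (67.6%) were called different between passages, against 46.2% of all genes tested. Of the 12 sterol enzymes called, 10 were highest in passage 15. *Sc5d*, the lathosterol oxidase, averaged 70.8 CPM over the 4 groups in passage 13, 88.9 CPM in passage 15 and 79.4 CPM in passage 16 (adjusted p = 0.000485 by edgeR). *Tm7sf2* and *Ebp*, a sterol isomerase, went the other way, with means of 49 and 34.2 CPM in passage 13 against 38.8 and 26.8 CPM in passage 15. Of the 7 fatty acid genes called, 6 were lowest in passage 13, among them *Fasn* (846.7 CPM in passage 13, 976.6 in passage 15 and 995.6 in passage 16) and *Acaca* (135.5, 171.7 and 170.9 CPM). *Acss2* was the exception, with 14.3 CPM in passage 13, 9.83 CPM in passage 15 and 9.47 CPM in passage 16 (adjusted p = 0.000121 by edgeR). *Mvd*, *Lss*, *Dhcr7* and *Stard4*, which were called in 2-DG, were not called between passages.

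**Figure D4:**
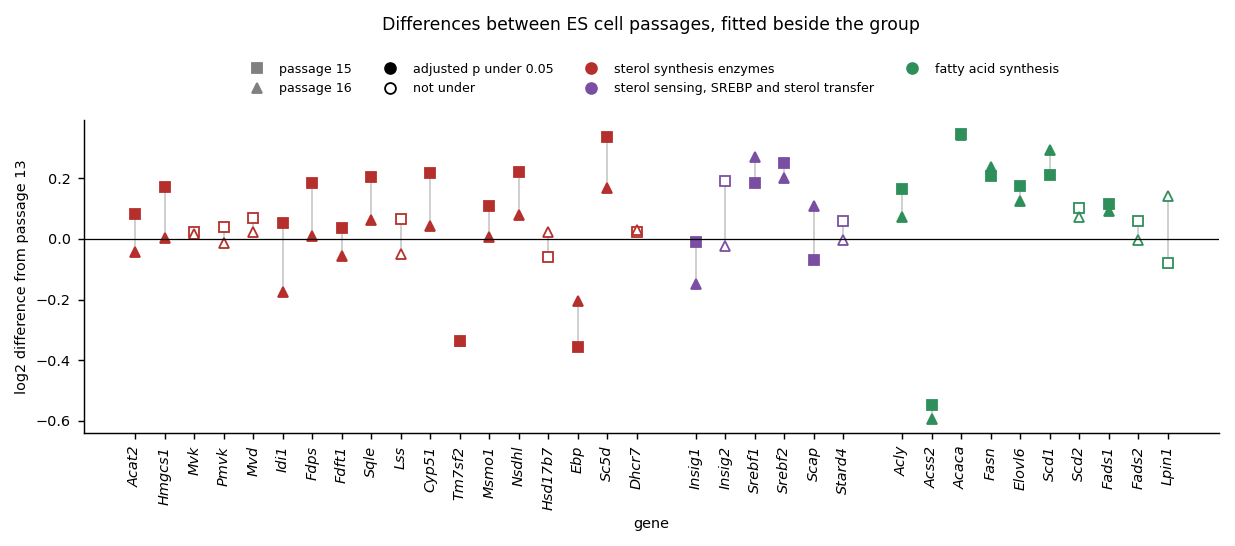
Log2 difference of passage 15 (squares) and passage 16 (triangles) from passage 13 (y axis) for the 34 genes (x axis), fitted by edgeR beside the group. Filled symbols are the 23 genes with an adjusted p under 0.05 for passage. *Acss2* lies lowest, at -0.55 and -0.59, and *Acaca* among the highest, at 0.34 in both.

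The counts of a gene were added over its RefSeq transcripts, and 14 of the 34 genes had 1 listed transcript, so that no apportioning between transcripts entered their values. Of these 14 genes 1 was called in 2-DG against 1× glucose, *Msmo1*, and with the block 10 were called higher and 1 lower. In the other 20 genes 7 were called higher, and 12 with the block. Of all genes tested 9.12% were called higher and 8.51% lower, and 21.1% and 20.2% with the block. Without the block the 14 genes thus did not exceed the share over all genes, whereas the other 20 did. *Mvd* had 2 listed transcripts, 1 of which took at least 99.5% of its counts in every library. The main transcript of *Insig2* took 71.3% of its counts in 1× glucose and 44.5% in 2-DG, that of *Lpin1* 50.8% and 26.5%, that of *Fdft1* 56.5% and 45.4% and that of *Hmgcs1* 46.4% and 35.6%. These means hide a wide spread: the main transcript of *Fasn* took 9.78% to 98.6% of its counts in single libraries and that of *Scap* 9.02% to 76%. With the most abundant transcript alone the test called 2 of the 34 genes, *Mvd* and *Msmo1*, and the calls of the other 6 were lost. *Hmgcs1* then had a log2 fold change of 0.004 (adjusted p = 0.999), *Fdft1* of 0.04 (0.95), *Lss* of 0.36 (0.388), *Dhcr7* of 0.58 (0.625), *Scap* of 0.20 (0.965) and *Stard4* of 0.23 (0.29), all adjusted p by edgeR. With curated transcripts alone 3 were called, *Mvd*, *Msmo1* and *Stard4*. *Hmgcs1* had 0.60 (adjusted p = 0.134 by edgeR), *Fdft1* 0.05 (0.915), *Lss* 0.36 (0.299), *Dhcr7* 0.32 (0.79) and *Scap* 0.51 (0.118) there. *Acat2* has a near-identical neighbor, *Acat3*, between which the counting could split reads.

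Genes around the pathway were read in the same fit of 2-DG against 1× glucose, from lists written by function, in a comparison in which 9.12% of all genes tested were called higher and 8.51% lower, and 21.1% and 20.2% with the block. Of 10 genes that process or degrade SREBP and its partners, 3 were called higher and 0 lower (median log2 fold change 0.11), and 5 and 0 with the block. Among them were *Syvn1*, a ubiquitin ligase of the endoplasmic reticulum, at 43.8, 54.5 and 59.5 CPM in 1× glucose and at 107.2, 126.2 and 100.1 CPM in 2-DG (log2 fold change 1.08), and *Ubxn4* (log2 fold change 0.30). Of 14 genes on other branches of the mevalonate pathway, 5 were higher and 1 lower (median 0.12), and 7 and 2 with the block, among them *Fntb*, a farnesyltransferase subunit (0.31), and *Coq2*, of ubiquinone synthesis (-0.44). Of 9 tested genes on a list of LXR and related receptors, LXR targets and lipid transporters, 1 was higher and 0 lower (median 0.17). It was the lipid transporter *Abca3* (0.89), and with the block 3 genes were higher and 1 lower. Of 15 genes of sterol uptake, lysosomal export and esterification, 3 were higher and 1 lower (median 0.05), and 6 and 1 with the block. Those with the lowest adjusted p were *Osbpl2*, an oxysterol-binding protein gene (-0.55), *Lipa*, the lysosomal lipase that frees sterol from its esters (0.36), and *Soat1*, which esterifies it again (0.41).

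Of 22 tested genes of fatty acid elongation, activation and acetyl-CoA supply, 3 were higher (13.6%) and 1 lower (4.55%) in 2-DG (median 0.13). Without the block this was close to the shares over all genes, 9.12% and 8.51%. With the block 11 were higher (50%) and 1 lower (4.55%), against 21.1% and 20.2% of all genes. *Mlxipl*, which encodes the glucose-responsive factor ChREBP, had the highest log2 fold change of that list (2.12), at 1.21 to 1.82 CPM in 1× glucose and 5.77 to 6.95 CPM in 2-DG. *Hsd17b12*, the reductase of the elongation cycle, was lower (-0.27). Of 22 fatty acid oxidation genes, 2 were higher and 1 lower (median -0.10), whereas with the block 4 were higher and 7 lower. Called in the fit without it were, among others, *Cpt1c* (0.54) and *Etfb*, an electron carrier subunit (-0.56). Of 26 genes of glycerolipid and phospholipid synthesis, 5 were higher and 2 lower (median 0.08), and 7 and 5 with the block, among them *Cds1*, a CDP-diacylglycerol synthase (1.00), and *Dgat2*, which makes triglyceride (-0.51). The medians of these lists lay between -0.10 and 0.17, beside 0.21 for the sterol enzymes and 0.002 for all genes tested, and no test of a list was made.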

How the data were processed

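PolyA RNA of 12 libraries was sequenced from a directional kit. For each library the authors deposited a file of estimated counts, which StringTie had divided among 120312 transcripts of RefSeq. Per the labels they used Trim Galore, HISAT2, SAMtools, Picard and StringTie on mm10, and the versions and strand settings are not given in the sources used here. All deposited counts were whole numbers. The authors' tables of fold changes and p-values from DESeq2 were not used.

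Counts were summed per gene through RefSeq (GRCm38.p6), which named all transcripts. Groups were taken from the titles. Genes were kept by filterByExpr and fitted over all libraries in edgeR 4.0.16 (R 4.3.3, limma 3.58.1; glmQLFit and glmQLFTest, TMM factors 0.977 to 1.03), without a passage term, as none is stated for the study. Tests were two-sided, adjusted by the Benjamini-Hochberg method over 16966 genes at 0.05. Standard errors came from the F statistic, with 95% confidence intervals from its degrees of freedom. CPM are scaled by TMM. Precision rests on the 3 libraries per group and on 415.2 counts or more per gene and library on average.

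Libraries of 1 passage deviated together from their group means: r across genes was 0.182 to 0.763 in all 18 pairs. Between libraries of different passages r reached 0.317 at most, so the ranges overlapped. The passage is named in the titles, and values with it as a block are given where they change a call. In no pair of libraries did more than 9.67% of the transcripts averaging 10 counts or more agree exactly.

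Alternatives were no filter, a mean of at least 100 counts, the block, median-of-ratios factors, the most abundant or the curated transcripts alone, only the groups compared, DESeq2 1.42.0 and leaving out each library. On simulated counts with 200 changed genes the fit was tested before use. The members and lists were chosen with earlier results of these data known. Values in every library are given for members called against 1× glucose that moved the same way in 3 of 3 passages. Other members with such values were chosen after these were seen. Other lists are given by count and median, with at most 4 called genes of the lowest adjusted p.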

Additional observations from a re-analysis of the deposited data

How the results depend on the processing

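Without a block, 8 of 34 genes were called in 2-DG against 1× glucose, 6 of them sterol enzymes, and 8 in 2-DG against 0× glucose. Leaving out 1 library gave 6 to 8, 4 to 6 and 6 to 8. With the passage as a replicate block these counts were 23, 16 and 20, with the most abundant transcript alone 2, 2 and 2, and with curated transcripts alone 3, 2 and 4. No other setting moved them by over 1.5 times, and the block changed no call in 0× or 3× against 1× glucose. Over all genes tested, 2990 were called in 2-DG against 1× glucose, 3207 in 2-DG against 0×, 2 in 0× against 1×, 0 in 3× against 1× and 2 in 3× against 0× glucose. Leaving out 1 library gave 1734 to 2352, 2051 to 2619, 1 to 3, 0 and 1 to 3. The block gave 7001, 7305 and, in 3× against 0× glucose, 136. The most abundant transcript gave 653, 775, 2 in 3× against 1× and 1 in 3× against 0× glucose, and curated transcripts 1077, 1213, 5 in 0× against 1× and 5 in 3× against 0× glucose. A fit of only the groups compared gave 1896 in 2-DG against 1×, 0 in 0× against 1× and 0 in 3× against 0× glucose. DESeq2 gave 7 in 0× against 1×, 2 in 3× against 1× and 22 in 3× against 0× glucose. The cause of these shifts was not tested.

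Of 922 log2 fold changes of named genes under the alternatives, 816 kept direction and side of the threshold, 65 lost a call, 22 gained one and 19 changed sign. In 2-DG against 1× glucose the sign changed with the most abundant transcript for *Insig2* (-0.57), *Srebf1* (0.023), *Acaca* (-0.035), *Fasn* (-0.53), *Lpin1* (-0.65) and *Lipa* (-0.13), and with curated transcripts for *Insig2* (-0.37) and *Fasn* (-0.52). *Fasn* in 3× against 1× glucose turned to -0.36 and -0.35 under these, and *Lpin1* in 2-DG against 0× glucose to -0.39 with the most abundant transcript. Leaving out 1 library gave -0.052 to 0.015 for *Mvk*, -0.057 to 0.235 for *Acaca*, -0.069 to 0.13 for *Fasn*, -0.012 to 0.36 for *Acss2*, -0.189 to 0.016 for *Srebf1* and -0.154 to 0.008 for *Srebf2*. None of these genes but *Lpin1* in 2-DG against 0× glucose and *Lipa* had been called.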
